A study of Mus musculus with 24 samples.

Results

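The 7 genes Foxp3, Ikzf2, Ikzf4, Izumo1r, Nrp1, Gpr83 and Capg were followed as genes that mark regulatory T (Treg) cells. They were taken by symbol from the count table, in which all 7 had a row among 54957 gene rows, and were described over all 24 libraries. RNA had been measured in T cells sorted from mouse tumours grown from B16F10-OVA, melanoma cells that express ovalbumin as their model antigen, 1 day after 200 µg of antibody. Treg cells, sorted as CD4+FOXP3+, came after anti-JAML, after anti-PD-1 or after isotype control antibody, and CD8+ T cells came after the same 3 antibodies, with 4 libraries in each of the 6 groups. PD-1 restrains activated T cells, and JAML is a junctional adhesion molecule of lymphocytes and myeloid cells. Each library was made from fewer than 400 cells by Smart-seq2, a full-length protocol for polyadenylated RNA. Nothing in the labels ties the 4 libraries of a group to separate mice, so every p-value measures the spread between libraries, which may be technical. Foxp3, Cd4 and CD8 served as sort markers, and their difference between the populations is a check of the labels, not a result.

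Treg cells hold other T cells in check, and their program rests on the forkhead transcription factor FOXP3, whose loss causes autoimmune disease in mice and people. Interleukin 2 signalling, T-cell receptor signalling and TGF-beta signalling switch Foxp3 on and keep it on, and FOXP3 works with partner factors, among them the Ikaros family proteins Helios (Ikzf2) and Eos (Ikzf4), to raise some genes and silence others. In mouse tumours, Treg cells are abundant and carry much of this program on the surface, which is why surface genes such as Izumo1r (folate receptor 4), Nrp1 (neuropilin 1) and Gpr83 are used to recognise them. Capg encodes an actin-capping protein of the gelsolin family.

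In the mm10 build, Foxp3 lies on chromosome X from 7573644 to 7595245 on the plus strand, Ikzf2 on chromosome 1 from 69531214 to 69687245 on the minus strand, and Ikzf4 on chromosome 10 from 128630843 to 128645991 on the minus strand. Nrp1 lies on chromosome 8 from 128358604 to 128503363 and Capg on chromosome 6 from 72544391 to 72562983, both on the plus strand. Gpr83, on the plus strand from 14860210 to 14870789, and Izumo1r, on the minus strand from 14885814 to 14903949, are neighbours on chromosome 9. They point at each other across 15024 bases, with 0 annotated genes between them. Whether reads were counted by strand is not given in the sources used here, and counts of overlapping genes are therefore uncertain. Foxp3 overlaps the noncoding gene Flicr and the coding gene Ppp1r3f, whose medians over the Treg libraries were 30.5 and 38.5 reads, against medians of 0 for both over the CD8 libraries. Gm28112, inside Ikzf2, had a median of 556 reads in Treg libraries and 47 reads in CD8 libraries.

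RefSeq promoter windows of assembly GRCm38.p6, the assembly behind mm10, were matched by symbol for 5 of the 7 genes, Foxp3 with 2 starts. For 3 of the genes a window is shown, each the bases just upstream of a RefSeq start, 5′ to 3′ on the strand of the gene: that of Foxp3 because every result is set against it, and those of Izumo1r and Gpr83 because these neighbours differ most in level among the surface genes. They lie at chrX:7579426-7579675 (plus), chr9:14903768-14904017 (minus) and chr9:14859960-14860209 (plus). Capitals mark matches to the motifs searched.
Foxp3: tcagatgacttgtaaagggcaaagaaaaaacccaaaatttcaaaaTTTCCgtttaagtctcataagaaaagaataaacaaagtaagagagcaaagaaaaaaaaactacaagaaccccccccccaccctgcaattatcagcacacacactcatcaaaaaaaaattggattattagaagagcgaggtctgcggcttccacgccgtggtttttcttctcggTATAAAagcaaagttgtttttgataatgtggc
Izumo1r: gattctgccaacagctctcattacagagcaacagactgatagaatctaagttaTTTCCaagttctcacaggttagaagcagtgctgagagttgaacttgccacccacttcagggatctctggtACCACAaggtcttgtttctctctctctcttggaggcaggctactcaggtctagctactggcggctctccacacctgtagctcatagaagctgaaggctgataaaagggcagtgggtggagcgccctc
Gpr83: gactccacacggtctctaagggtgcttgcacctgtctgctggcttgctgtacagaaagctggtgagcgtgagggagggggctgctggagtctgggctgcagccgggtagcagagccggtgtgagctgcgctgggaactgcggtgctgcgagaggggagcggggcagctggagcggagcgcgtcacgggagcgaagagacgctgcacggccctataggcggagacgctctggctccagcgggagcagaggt
Windows of 250 bases were searched on both strands. The forkhead motif was spelled GTAAACA. The RUNX motif was TGTGGT. The core NFAT motif was GGAAA. The TATA box was TATAAA. The cyclic AMP response element was TGACGTCA. In the Foxp3 window TATAAA stood 32 to 27 bases upstream of the start, and the NFAT letters stood as TTTCC on the other strand. TATAAA occurred in 12.4% of 32851 RefSeq promoter windows of this length, and 1 of the 5 matched genes had it. The Izumo1r window held TTTCC and ACCACA, the reverse complements of the NFAT and RUNX motifs, which occurred in 55.6% and 14.0% of all windows. The Gpr83 window held none of these letters, and the forkhead and cyclic AMP motifs, found in 3.17% and 1.55% of all windows, were in the window of 0 of the 5 genes. No match overlapped another in the windows shown, and a match of letters is a description and not a binding site.

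Libraries held 11170918 to 22556460 reads (median 16238787) and 12643 to 15356 genes with a read. The labels held against lineage markers. Cd4 had 105.3 to 327 TPM, the authors' unit scaled by transcript length, over the 12 Treg libraries, and it was at 0 counts in 11 of 12 CD8 libraries. Cd8a was between 0 and 0.0443 TPM in Treg libraries, against 853 to 1221 TPM in CD8 libraries. Cd8b1, the other CD8 chain, was not at 0 in Treg libraries: it had 18.7 to 70.0 TPM there, against 1231 to 1866 TPM in CD8 libraries. Some libraries stood apart. Library 3 of the Treg isotype group had the fewest genes detected, CD8 anti-JAML library 4 had 6.89% mitochondrial counts, and macrophage markers summed to 461 CPM (reads scaled to a common library size) in CD8 anti-JAML library 2. The same sum reached 1191 and 797 CPM in Treg anti-PD-1 libraries 4 and 1. Erythroid markers (5 genes) summed to 1372 CPM in Treg anti-JAML library 4, 693 CPM in Treg anti-PD-1 library 1, 497 and 404 CPM in CD8 anti-JAML libraries 2 and 4, and 275 CPM in CD8 isotype library 3, and to at most 8.68 CPM in the others.

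Foxp3, the transcription factor that defines the lineage, was read in all 12 Treg libraries and in 0 of 12 CD8 libraries. In order of replicate number, Treg libraries had 169, 112, 74.8 and 112 CPM after anti-JAML, 40.5, 109, 92.4 and 76.0 CPM after anti-PD-1, and 60.7, 63.3, 56.5 and 99.8 CPM after isotype. The 3 Treg groups overlapped, with the highest value after anti-JAML and the lowest after anti-PD-1. The Treg reads summed to 8159, 4759 and 5092 in these groups, against 0 in each CD8 group. With a floor of 3 reads over a whole CD8 group, Foxp3 was at least 2278-fold higher in Treg than in CD8 cells after anti-JAML, at least 1719-fold after anti-PD-1 and at least 1188-fold after isotype. These bounds cover counting error only, since reads amplified without molecular identifiers can copy 1 molecule. In bulk libraries, fewer cells that express a gene and less RNA per cell cannot be told apart.

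**Figure D1:**
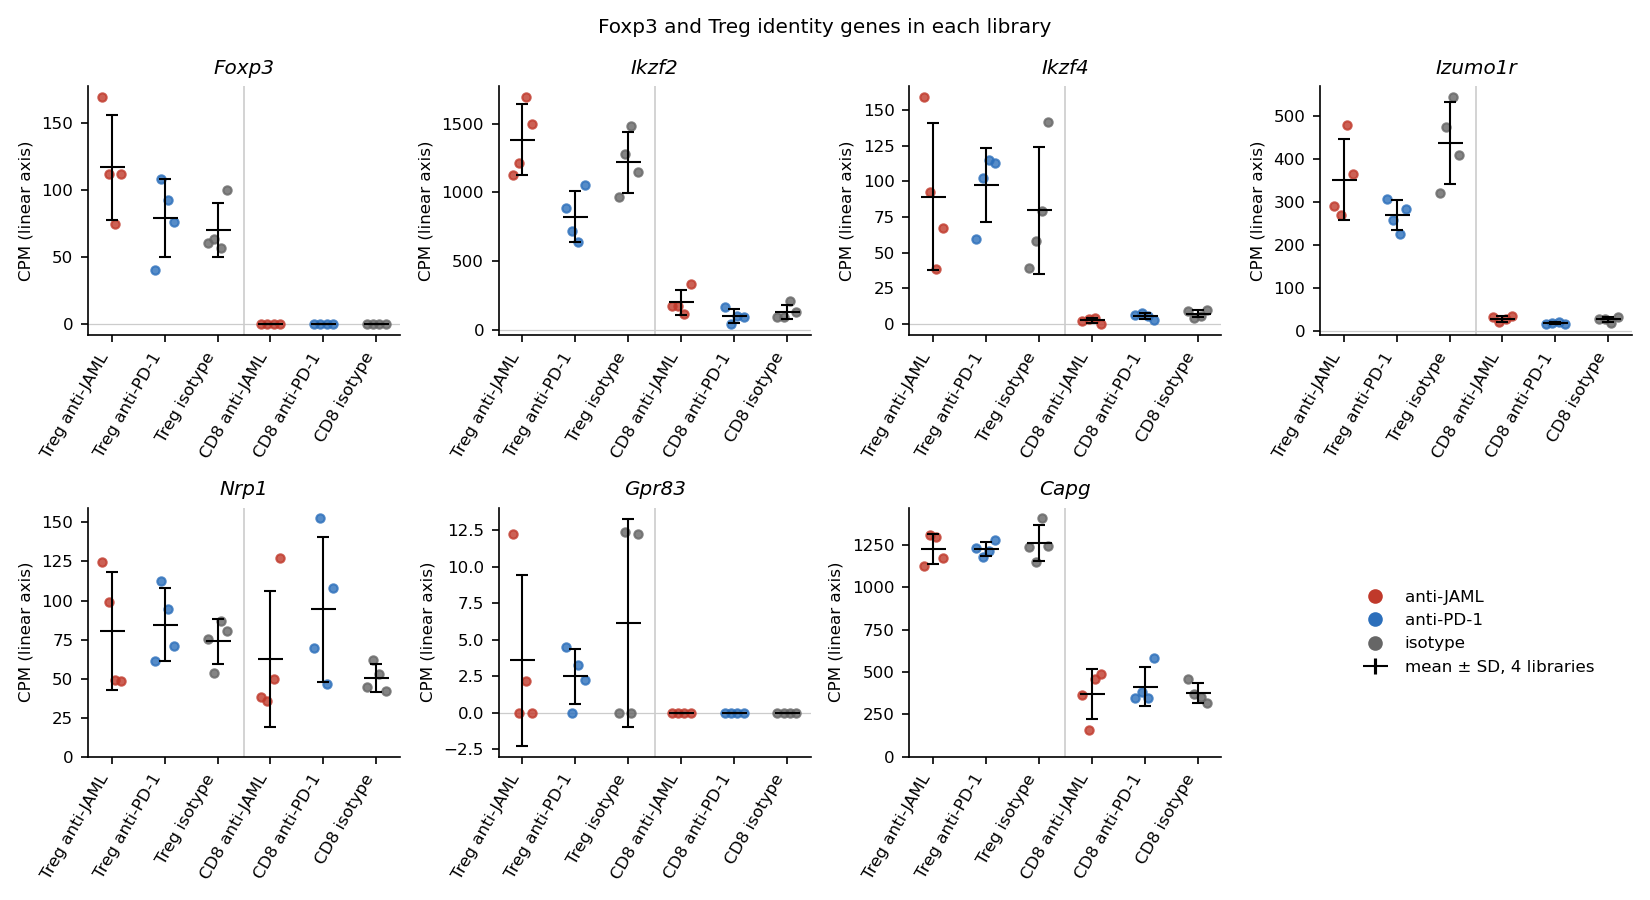
CPM of the 7 genes in each library on linear axes, 1 point per library, with the mean and SD of 4 libraries in black; Treg groups stand left of the line and CD8 groups right of it. Foxp3 and Gpr83 are at 0 in all CD8 libraries, Izumo1r, Ikzf2, Ikzf4 and Capg sit higher in every Treg library than in any CD8 library, and Nrp1 overlaps between the populations.

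Ikzf2, which encodes Helios, was the more abundant of the 2 Ikaros family members studied. Treg libraries had 1128, 1216, 1691 and 1499 CPM after anti-JAML, 882, 719, 635 and 1053 CPM after anti-PD-1, and 962, 1279, 1484 and 1145 CPM after isotype. CD8 libraries had 174, 172, 116 and 331 CPM after anti-JAML, 161, 39.2, 98.7 and 88.0 CPM after anti-PD-1, and 92.4, 94.0, 204 and 126 CPM after isotype. The lowest Treg library was above the highest CD8 library, but no CD8 library was without Ikzf2 reads. The log2 fold change of Treg over CD8 cells was 2.89 ± 0.33 (SE) after anti-JAML, 3.10 ± 0.39 after anti-PD-1 and 3.31 ± 0.28 after isotype, with edgeR adjusted p-values of 0.00334, 0.00185 and 0.000175.

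Ikzf4, which encodes Eos, a corepressor partner of FOXP3, was lower in level and nearer to an on-off pattern. Its Treg values were 159, 92.9, 38.7 and 67.1 CPM after anti-JAML, 59.5, 102, 115 and 113 CPM after anti-PD-1, and 39.5, 58.3, 79.5 and 142 CPM after isotype. CD8 libraries held 2.08, 3.90, 4.33 and 0 CPM after anti-JAML, 6.71, 7.74, 6.03 and 3.10 CPM after anti-PD-1, and 9.54, 4.26, 5.98 and 9.79 CPM after isotype. Each Treg library exceeded each CD8 library. Log2 fold changes of Treg over CD8 cells were 5.21 ± 0.99 after anti-JAML, 4.05 ± 0.36 after anti-PD-1 and 3.49 ± 0.46 after isotype (edgeR adjusted p = 0.0284, 0.000323 and 0.00169). The anti-JAML call was lost without any of 5 libraries: Treg 1, 2 or 4 (adjusted p = 0.0952, 0.0927 and 0.0645) and CD8 1 or 3 (adjusted p = 0.102 and 0.0787).

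Izumo1r, the folate receptor family protein known as folate receptor 4 on mouse Treg cells and as Juno on the egg, had the smallest adjusted p of the members after each antibody, Foxp3 left aside. In Treg libraries it had 292, 270.2, 479 and 365 CPM after anti-JAML, 307, 259.5, 226 and 284 CPM after anti-PD-1, and 322, 476, 544 and 410.4 CPM after isotype. CD8 libraries had 33.2, 20.3, 27.0 and 36.1 CPM after anti-JAML, 17.1, 19.8, 21.1 and 16.2 CPM after anti-PD-1, and 28.2, 28.0, 18.2 and 33.4 CPM after isotype. The populations did not overlap. The anti-PD-1 group was the lowest of the 3 Treg groups and lay wholly below the Treg isotype group on CPM, though not on TPM. Treg over CD8, the log2 fold change was 3.68 ± 0.28 after anti-JAML, 3.87 ± 0.20 after anti-PD-1 and 4.09 ± 0.25 after isotype (edgeR adjusted p = 0.00033, 6.08e-06 and 4.41e-05).

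Nrp1, a co-receptor for semaphorins and VEGF that marks mouse thymus-derived Treg cells, did not separate the populations. Treg libraries had 125, 98.9, 49.4 and 48.7 CPM after anti-JAML, 61.2, 112, 94.3 and 70.7 CPM after anti-PD-1, and 75.5, 53.6, 86.7 and 80.3 CPM after isotype. CD8 libraries had 38.2, 35.8, 49.5 and 127 CPM after anti-JAML, 69.6, 153, 46.8 and 108 CPM after anti-PD-1, and 45.0, 62.0, 53.2 and 42.1 CPM after isotype. The ranges overlapped after every antibody, and the highest library of all was a CD8 library. The log2 fold change of Treg over CD8 cells was 0.46 ± 0.49 after anti-JAML (edgeR adjusted p = 0.804), -0.15 ± 0.35 after anti-PD-1 (adjusted p = 0.836) and 0.62 ± 0.22 after isotype (adjusted p = 0.0910). Without Treg isotype library 2, the lowest of its group, the isotype difference was 0.74 with an adjusted p of 0.0482.

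Gpr83, a G protein-coupled receptor enriched in Treg cells of healthy mice, was barely read. Treg libraries had 12.3, 0, 2.14 and 0 CPM after anti-JAML, 4.49, 0, 3.24 and 2.23 CPM after anti-PD-1, and 0, 12.4, 0 and 12.3 CPM after isotype. It was at 0 in 5 of 12 Treg libraries and in all 12 CD8 libraries, so the groups overlapped at 0. Summed over a group, Treg cells had 248, 150 and 469 reads after anti-JAML, anti-PD-1 and isotype, against 0 CD8 reads in each. Against the floor of 3 reads per CD8 group, Gpr83 was at least 69.2-fold, 54.2-fold and 109-fold higher in Treg cells. After anti-JAML, library 1 alone held 207 of the 248 reads, and without it the bound was 15.04-fold. After isotype, libraries 2 and 4 held 279 and 190 reads, and the bound was 63.6-fold without library 2. It did not pass the filter on low counts in the comparisons of populations.

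Capg was high in both populations, and its SD on CPM was the smallest share of the mean of the 7 genes in each Treg group, which did not hold on TPM after anti-JAML or anti-PD-1. Treg libraries had 1122, 1306, 1295 and 1173 CPM after anti-JAML, 1231, 1179, 1213 and 1275 CPM after anti-PD-1, and 1233, 1149.9, 1406 and 1243 CPM after isotype. CD8 libraries had 367, 161, 461 and 490.3 CPM after anti-JAML, 349, 381, 346 and 582 CPM after anti-PD-1, and 457, 369, 351 and 320.5 CPM after isotype. Every Treg library was above every CD8 library, at log2 fold changes of 1.82 ± 0.31 after anti-JAML, 1.57 ± 0.20 after anti-PD-1 and 1.82 ± 0.14 after isotype (edgeR adjusted p = 0.0185, 0.00188 and 0.0001265). The anti-JAML call was lost without Treg library 2, 3 or 4 (adjusted p = 0.0703, 0.0519 and 0.0517) or CD8 library 1 (adjusted p = 0.0680).

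**Figure D2:**
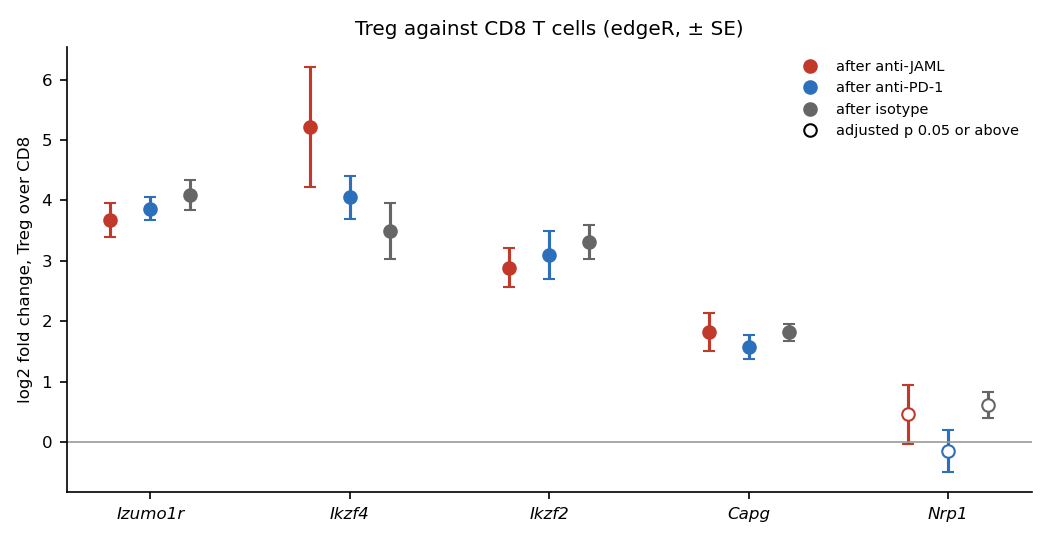
Log2 fold change of Treg over CD8 cells from edgeR, with an SE derived from its F statistic, for the 5 members with reads in both populations. Colours give the antibody, and open symbols mark an adjusted p of 0.05 or above. Izumo1r, Ikzf4, Ikzf2 and Capg lie above 0 after each antibody, while Nrp1 lies between -0.15 and 0.62.

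Counted together, 5 of the 6 members tested were higher in Treg than in CD8 cells after each antibody (Foxp3, Ikzf2, Ikzf4, Izumo1r and Capg), and 0 were lower. Among all genes, 1.35% of 11950 were called higher and 0.728% lower after anti-JAML, 4.21% and 3.63% of 12193 after anti-PD-1, and 7.12% and 8.21% of 11680 after isotype. The same 5 members stood wholly above the CD8 libraries after each antibody, as 6.13%, 8.73% and 9.96% of all genes did after anti-JAML, anti-PD-1 and isotype. Foxp3 is a sort marker and passed the filter through the Treg libraries alone, so it adds nothing to that count. The median log2 fold change of the other 5 tested members was 2.89, 3.10 and 3.31 in this order, beside 0.03, 0.05 and 0.06 over all genes tested. CD8 anti-JAML libraries 2 and 4 were left out as standing apart. The log2 fold changes after anti-JAML were then 3.34 for Ikzf2, 4.89 for Ikzf4, 3.63 for Izumo1r and 1.65 for Capg, each still called. Treg anti-JAML library 4, with the highest erythroid sum, was kept in that setting, and without it alone Ikzf4 and Capg were not called. Without Treg isotype library 3, the isotype calls of the same 4 genes held too. Without the macrophage-high libraries the calls after anti-JAML and after anti-PD-1 held as well. The effect of anti-JAML or anti-PD-1 against isotype in Treg minus that in CD8 cells was tested for the 5 members with reads in both populations. For anti-JAML it lay between -0.43 and 1.68 (log2), and for anti-PD-1 between -0.71 and 0.62. None was called by edgeR, and 0 of 14591 genes were (0%). The farthest from 0 was Ikzf4 for anti-JAML, at 1.68 ± 0.88 (edgeR adjusted p = 0.639). Before adjustment, 1224 genes for anti-JAML and 913 genes for anti-PD-1 had a p under 0.05, and DESeq2 called 283 and 201 genes.

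Beside 0 Foxp3 reads, CD8 libraries held 678 to 4820 reads of Ikzf2, 235 to 529 of Izumo1r, 477 to 2645 of Nrp1 and 2146 to 9577 of Capg. Ikzf4 had 0 to 155 reads there and was at 0 in 1 of the 12 libraries.

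On the length-scaled TPM of the authors, which allows levels of different genes to be compared, the order in Treg cells was Capg, Izumo1r, Ikzf2, Foxp3, Ikzf4, Nrp1 and Gpr83. Their medians over 12 libraries were 1291, 348, 260.6, 50.7, 33.4, 19.7 and 1.08 TPM. Capg was above Izumo1r, Izumo1r above Ikzf2, Ikzf2 above Foxp3 and Nrp1 above Gpr83 in all 12 libraries. Foxp3 exceeded Ikzf4 in 9 of 12 libraries and Ikzf4 exceeded Nrp1 in 11, and the ranges of these neighbours overlapped, as did those of Izumo1r and Ikzf2. The lineage factor itself thus stood below 3 of the other genes in level. In CD8 cells the medians were 305 TPM for Capg, 24.7 for Izumo1r, 22.6 for Ikzf2, 11.9 for Nrp1, 1.90 for Ikzf4 and 0 for Foxp3 and Gpr83.

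Relatives of the members were set beside them family by family. Among Ikaros factors, Ikzf1 (Ikaros) had a median of 42.8 TPM in Treg and 56.8 TPM in CD8 libraries, Ikzf3 (Aiolos) 35.1 and 28.4 TPM, and Ikzf5 0.534 and 0.304 TPM, with overlapping ranges. Ikzf1 was called lower in Treg cells after isotype, at a log2 fold change of -0.81 ± 0.21 (edgeR adjusted p = 0.0312). After anti-JAML and anti-PD-1 it was not called, at -0.80 ± 0.37 and -0.65 ± 0.40 (adjusted p = 0.414 and 0.355). Of the forkhead P genes, Foxp1 had medians of 6.66 TPM in Treg and 7.48 TPM in CD8 libraries, Foxp4 3.39 and 1.72 TPM, and Foxp2 0 in both. Nrp2, the other neuropilin, and Folr1 and Folr2, the other folate receptors, had medians of 0 TPM in both populations. Among gelsolin family genes, Flii had 31.2 TPM in Treg and 21.2 TPM in CD8 libraries, Gsn 16.5 and 5.75, Svil 5.56 and 4.28, Scin 3.52 and 1.85, and Vil1 and Avil 0 and 0. After isotype, the 5 gelsolin family genes tested all had log2 fold changes above 0. Their median was 1.82, the value of Capg, so relatives lay on both sides of it, but only Capg was called. The ranges of all these relatives overlapped between Treg and CD8 cells.

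**Figure D3:**
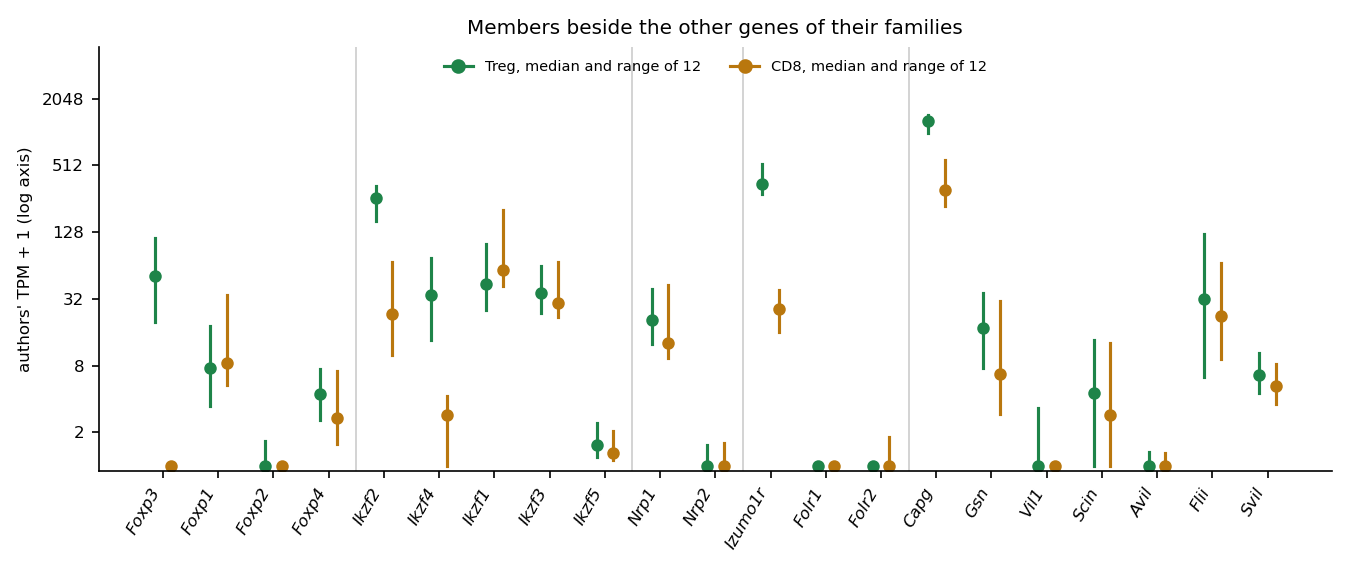
Median and range of the authors' TPM plus 1 on a log axis over 12 Treg and 12 CD8 libraries, for members and relatives grouped by family: forkhead P, Ikaros, neuropilin, folate receptor and gelsolin. The Treg and CD8 ranges are apart for Foxp3, Ikzf2, Ikzf4, Izumo1r and Capg, and they overlap for Nrp1 and each relative.

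Genes of the surrounding pathway were counted from 4 lists. For scale, 7.12% of all genes tested in the isotype libraries were called higher in Treg than in CD8 cells, and 8.21% lower. These shares were 4.21% and 3.63% in the anti-PD-1 libraries, and 1.35% and 0.728% in the anti-JAML libraries. The all-gene median log2 fold changes were 0.06, 0.05 and 0.03 in this order. Whether a list exceeded the all-gene shares was not tested. Of 25 genes that act upstream of Foxp3 (interleukin 2, T-cell receptor, TGF-beta, RUNX and NR4A signalling and DNA demethylation), 1 was higher and 0 lower in Treg cells after anti-JAML, 6 higher and 1 lower after anti-PD-1, and 9 higher and 1 lower after isotype. Il2ra, the high-affinity interleukin 2 receptor chain, was the gene of this list called higher after all 3 antibodies, averaging 274 ± 54.0 CPM in Treg and 47.4 ± 22.95 CPM in CD8 cells after anti-JAML (SD, n = 4 each; log2 fold change 2.63 ± 0.35, adjusted p = 0.00542). After isotype, Il2rg, the shared cytokine receptor chain, differed by 0.89 ± 0.15 (adjusted p = 0.0049). The receptor-induced nuclear receptors Nr4a1 and Nr4a2 went opposite ways after isotype: Nr4a1 was higher in Treg than in CD8 cells and Nr4a2 lower, at log2 fold changes of 1.67 ± 0.28 and -2.39 ± 0.40 (adjusted p = 0.00506 and 0.00499). Among the anti-PD-1 libraries, Runx1, whose protein binds FOXP3, was higher in Treg than in CD8 cells by 3.03 ± 0.39 (log2; adjusted p = 0.00201). The list's median log2 fold change was 0.30 after anti-JAML, 0.67 after anti-PD-1 and 0.81 after isotype.

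Transcription factors and chromatin proteins that partner FOXP3 or shape Treg subsets gave 3 higher and 0 lower of 18 tested after anti-JAML, 3 and 0 of 17 after anti-PD-1, and 5 and 2 of 17 after isotype. Rora, an orphan nuclear receptor of tissue Treg cells, and Hif1a, the hypoxia factor, were called higher after each antibody. After anti-JAML, Rora differed by 2.51 ± 0.28 and Hif1a by 1.94 ± 0.31 (log2; adjusted p = 0.00314 and 0.0136), and Prdm1, which encodes BLIMP1, by 2.44 ± 0.44 (adjusted p = 0.0235). Gata3, a factor of tissue Treg cells, differed by 1.74 ± 0.42 after anti-PD-1 and by 1.92 ± 0.34 after isotype (adjusted p = 0.0337 and 0.00572). Lower in Treg than in CD8 cells after isotype, Ezh2, the polycomb methyltransferase, differed by -0.98 ± 0.25 (log2, Treg over CD8, adjusted p = 0.0253). The list's medians were 0.38, 0.64 and 0.25 after anti-JAML, anti-PD-1 and isotype.

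Treg effector genes, nearly all surface proteins, were the most uniform list. Of 20 genes, 11 were higher in Treg cells after anti-JAML, 14 after anti-PD-1 and 17 after isotype, and 0 were lower. The list's median log2 fold changes were 2.501, 2.87 and 2.87 in this order. Icos, a costimulatory receptor, averaged 692 ± 131 CPM in Treg and 102 ± 22.8 CPM in CD8 cells after anti-JAML. Its log2 fold changes were 2.85 ± 0.23 after anti-JAML and 3.42 ± 0.22 after isotype (adjusted p = 0.000467 and 4.50e-05). Ctla4, the inhibitory receptor by which Treg cells strip costimulatory ligands, differed by 2.65 ± 0.24 after anti-JAML and 2.83 ± 0.17 after anti-PD-1 (adjusted p = 0.000918 and 2.03e-05). Klrg1, a receptor of differentiated Treg cells, differed by 3.65 ± 0.34 and 4.06 ± 0.35 in the same comparisons (adjusted p = 0.001 and 0.000247), and Ccr8, a chemokine receptor of tumour Treg cells, by 3.34 ± 0.27 after anti-PD-1 (adjusted p = 0.000198). The TNF receptor family genes Tnfrsf4 and Tnfrsf18, which encode OX40 and GITR, differed by 2.34 ± 0.12 and 2.29 ± 0.18 after isotype (adjusted p = 3.11e-05 and 0.000135).

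The fourth list, 8 genes that FOXP3 is known to hold down, did not move one way. After anti-JAML 0 of 7 tested genes were called, after anti-PD-1 1 of 6 was higher in Treg cells and 1 lower, and after isotype 2 of 7 were higher and 1 lower, with medians of -1.34, -0.59 and -0.37. Ifng, the type 1 effector cytokine, averaged 41.4 ± 17.3 CPM in Treg and 359 ± 95.3 CPM in CD8 cells after isotype, a log2 fold change of -3.05 ± 0.34 (adjusted p = 0.000643). Il7r, the interleukin 7 receptor, and Cd40lg, a helper ligand of CD4 T cells, were higher in Treg cells after isotype, by 1.73 ± 0.46 and 4.39 ± 1.25 (adjusted p = 0.0339 and 0.0435). The reference here is a CD8 population, which differs from Treg cells in lineage as well as in Foxp3. No gene of the 4 lists was called by edgeR in any antibody comparison or interaction.

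Whether an antibody changed the identity genes of Treg cells was asked in 3 comparisons over the 12 Treg libraries, in which all 7 members were tested and edgeR called 0. DESeq2 called Izumo1r in 1 of these comparisons and Ikzf2 in 1 other. Only Ikzf2, Izumo1r and Foxp3 had an edgeR p under 0.05 before adjustment in any of the 3. Anti-PD-1 and isotype libraries are each used in more than 1 of these comparisons, so the comparisons are not independent.

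After anti-PD-1, Izumo1r averaged 269 ± 35.1 CPM in Treg cells, against 438 ± 94.7 CPM after isotype (SD, n = 4 each). Its log2 fold change was -0.71 ± 0.21 with an edgeR adjusted p of 0.166, under 0.05 before adjustment only. On CPM, all 4 anti-PD-1 libraries were below all 4 isotype libraries, an arrangement in which 3.07% of 12981 genes tested stood. On TPM the 2 groups overlapped: isotype library 1 had 287.5 TPM and anti-PD-1 library 4 had 335.1 TPM. Ikzf2 averaged 822 ± 185 CPM after anti-PD-1 and 1218 ± 220.4 CPM after isotype, at a log2 fold change of -0.57 ± 0.19 (edgeR adjusted p = 0.210, also under 0.05 before adjustment only), with 1 anti-PD-1 library above the lowest isotype library. Foxp3 averaged 79.4 ± 29.1 CPM and 70.1 ± 20.0 CPM in the same groups (0.18 ± 0.33, adjusted p = 0.901). That difference was -0.55 with genes detected as covariate and -0.0145 without anti-PD-1 library 2. The other 4 members had log2 fold changes from -1.33 (Gpr83) to 0.28 (Ikzf4), with adjusted p-values of 0.885 to 0.945. In all, edgeR called 3 of 12981 genes (0.0231%), 1835 genes (14.1%) had a p under 0.05 before adjustment, and DESeq2 called 623 genes, Izumo1r among them (adjusted p = 0.0279). With DESeq2, Ikzf2 had an adjusted p of 0.0627.

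Other measures also differed in range between the anti-PD-1 and isotype Treg libraries. T-cell receptor complex genes and Lck (5 genes, none at 0) summed to 4449 to 5954 CPM in anti-PD-1 Treg libraries and to 5945 to 8131 CPM in isotype ones. Macrophage markers (12 genes) summed to 14.96 to 1191 CPM after anti-PD-1, where 0 of the 12 were at 0 in all 4 libraries, against 20.1 to 104 CPM after isotype, where Csf1r and Mrc1 were among those at 0. Without anti-PD-1 libraries 1 and 4, which held the most macrophage reads, the log2 fold changes were -0.84 for Izumo1r and -0.83 for Ikzf2 (edgeR adjusted p = 0.170 and 0.110). Genes detected ranged from 14031 to 15162 after anti-PD-1 and from 12643 to 14378 after isotype. With their number as a covariate the log2 fold changes were -0.53 for Izumo1r and -0.43 for Ikzf2, and without isotype library 3 they were -0.59 and -0.46. The part of the T-cell genes in these differences was not tested.

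After anti-JAML, Foxp3 averaged 117 ± 39.0 CPM, against 70.1 ± 20.0 CPM after isotype, at a log2 fold change of 0.74 ± 0.34 (edgeR adjusted p = 0.904, under 0.05 before adjustment only). The ranges overlapped. Anti-JAML Treg libraries had 13413 to 15158 genes detected, and with that number as a covariate the Foxp3 difference was 0.22. Macrophage markers summed to 9.89 to 100.5 CPM after anti-JAML, with Adgre1 among those at 0, against 20.1 to 104 CPM after isotype. Without isotype library 3, which had the lowest Foxp3 value of its group, the difference was 0.65. With each library left out in turn it lay between 0.495 and 0.979. The other 6 members lay between -0.77 (Gpr83) and 0.18 (Ikzf2), each with an adjusted p of 1. EdgeR called 0 of 12981 genes (0%), 699 (5.38%) had a p under 0.05 before adjustment, and DESeq2 called 87.

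Between the antibodies, Ikzf2 was farthest from 0 among the members read in every Treg library. It averaged 1383 ± 259 CPM in Treg cells after anti-JAML and 822 ± 185 CPM after anti-PD-1, and the lowest anti-JAML library was above the highest anti-PD-1 library. The log2 fold change was 0.75 ± 0.19 with an edgeR adjusted p of 0.583, under 0.05 before adjustment only. By DESeq2 the adjusted p was 0.0191. In 2.27% of the 12981 genes tested, the anti-JAML libraries stood wholly above the anti-PD-1 ones. Without the macrophage-high anti-PD-1 libraries the difference was 1.01 (adjusted p = 0.304). Foxp3 differed by 0.56 ± 0.34 (adjusted p = 1.00; 0.21 without the macrophage-high libraries) and Izumo1r by 0.38 ± 0.21 (adjusted p = 0.985). EdgeR called 0 genes (0%), 742 (5.72%) had a p under 0.05 before adjustment, and DESeq2 called 70.

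**Figure D4:**
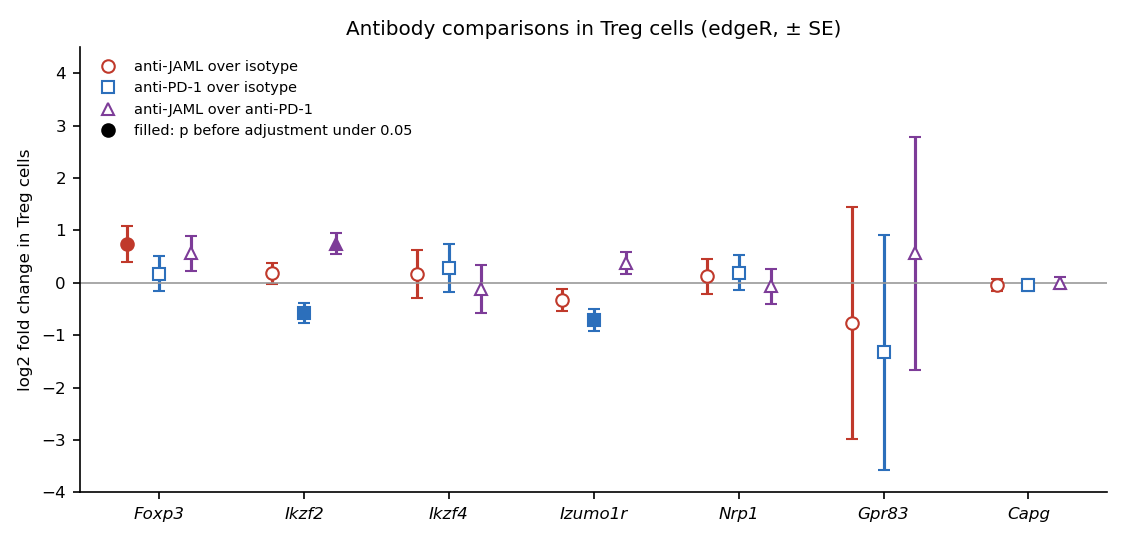
Log2 fold changes from edgeR, with an SE derived from its F statistic, for the 3 antibody comparisons in Treg cells. A filled symbol marks p under 0.05 before adjustment, and 0 of the 7 members passed after adjustment. Izumo1r (-0.71) and Ikzf2 (-0.57) lie below 0 for anti-PD-1 over isotype, Ikzf2 lies at 0.75 for anti-JAML over anti-PD-1, and Foxp3 lies at 0.74 for anti-JAML over isotype.

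In CD8 cells, 5 members were tested between antibodies and 0 were called. Genes called were 0 of 12648 for anti-JAML over isotype (0%; 1483 with p under 0.05 before adjustment, 210 by DESeq2) and 0 for anti-PD-1 over isotype (0%; 710 and 22). For anti-JAML over anti-PD-1, 1 gene was called (0.00791%; 1261 and 262). In that comparison Ikzf2 averaged 198 ± 92.7 CPM after anti-JAML and 96.6 ± 49.9 CPM after anti-PD-1, a log2 fold change of 1.07 ± 0.41 (edgeR adjusted p = 0.372). Its highest value came from anti-JAML library 4, the library with 6.89% mitochondrial counts, without which the difference was 0.70, and with genes detected as a covariate it was 0.34. Izumo1r averaged 29.2 ± 7.03 CPM and 18.6 ± 2.30 CPM in the same groups, at 0.67 ± 0.29 (edgeR adjusted p = 0.461). Both were under 0.05 before adjustment only, and both overlapped between the groups. Macrophage markers summed to 21.1 to 461 CPM after anti-JAML and 5.43 to 139 CPM after anti-PD-1 in these cells, and their part in these differences was not tested. Over all 3 CD8 comparisons, the members' log2 fold changes lay between -1.48 and 1.07.

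Within the Treg libraries the members did not vary together as a block. Over 12 libraries 21 relations among 6 members and the number of genes detected were computed on log2 CPM (prior count 2), after the values had been seen. Ikzf2 and Izumo1r had Pearson's r = 0.80 (permutation p = 0.00215, 100000 resamples, 0.04515 after Benjamini-Hochberg adjustment) and Spearman's rho = 0.78 (permutation p = 0.0045, adjusted 0.0945). With antibody means removed, r was 0.88 (exact permutation p = 0.000723 over 13824 arrangements, adjusted 0.0152). Without the 2 libraries farthest from the median of Ikzf2, r was 0.67. In each antibody group the same 2 libraries were lowest in both genes: these were libraries 1 and 2 of anti-JAML, libraries 2 and 3 of anti-PD-1, and libraries 1 and 4 of isotype.

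Foxp3 and Ikzf4 had r = 0.64 (permutation p = 0.0270, adjusted 0.142) and rho = 0.59 (permutation p = 0.0463, adjusted 0.195), and 0.81 with antibody means removed (exact permutation p = 0.00463, adjusted 0.0486). Without the 2 libraries farthest from the Foxp3 median, r was 0.52. Over the 12 libraries Ikzf4 and Nrp1 had a higher r, 0.70 (permutation p = 0.0122, adjusted 0.128). With antibody means removed, r was 0.69 for Ikzf4 and Nrp1 and 0.68 for Foxp3 and Nrp1 (exact permutation, adjusted p = 0.146 for each). Nrp1 went the other way with Ikzf2 (r = -0.52) and Izumo1r (r = -0.54) over the 12 libraries. Foxp3 and Ikzf2 had r = -0.02 (permutation p = 0.957), and Foxp3 and Izumo1r r = -0.37 (permutation p = 0.236). Foxp3 and genes detected had r = 0.56 (permutation p = 0.0601, adjusted 0.205), Ikzf4 and genes detected 0.60 (permutation p = 0.0417, adjusted 0.175), and Izumo1r and genes detected -0.64 (permutation p = 0.0262, adjusted 0.142). With genes detected removed from both, r within antibody groups was 0.86 for Ikzf2 and Izumo1r (exact permutation, adjusted p = 0.0228) and 0.69 for Foxp3 and Ikzf4 (exact permutation, adjusted p = 0.0814). Leaving out each library in turn, r within antibody groups stayed between 0.85 and 0.96 for Ikzf2 and Izumo1r, past the threshold in 9 of 12 settings. For Foxp3 and Ikzf4 it stayed between 0.75 and 0.86, and the adjusted value was 0.05 or above in 11 of 12 settings.

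**Figure D5:**
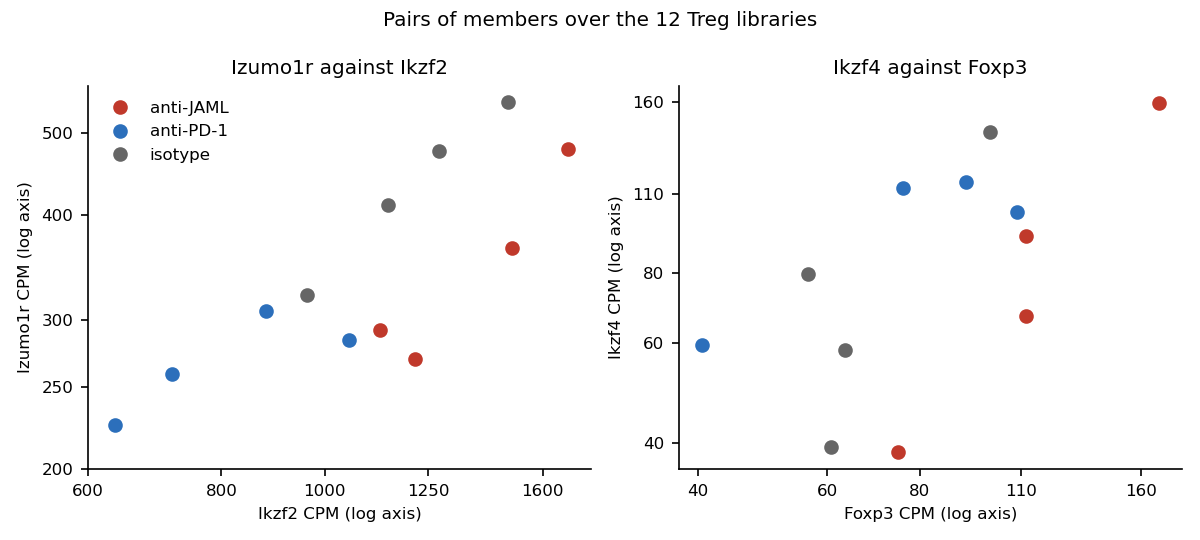
CPM of Izumo1r against Ikzf2 (left) and of Ikzf4 against Foxp3 (right) in the 12 Treg libraries on log axes, 1 point per library, coloured by antibody. The points of Ikzf2 and Izumo1r lie along a rising line (r = 0.80), with the anti-PD-1 libraries in its lower part, mixed with other libraries. Those of Foxp3 and Ikzf4 scatter more (r = 0.64).

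Genes most like Foxp3 were ranked among 14590 genes by the root mean square (RMS) difference of log2 CPM centred on each gene's mean. Over all 24 libraries the 5 nearest with known names were Cd4 (RMS 0.937), Ccr4 (1.34), Mmp9 (1.38), Lrrc32 (1.51) and Ncmap (1.52). Genes with only a predicted, clone or pseudogene name were passed over in this naming. Foxp3 is a sort marker at 0 in CD8 libraries, so this order favours genes near 0 there, a split set by the sort. Cd4 is a sort marker, Ccr4 a chemokine receptor, Mmp9 a secreted protease, Lrrc32 the GARP protein that presents latent TGF-beta on Treg cells, and Ncmap a membrane protein of myelinating glia. Mmp9 averaged 22.4 CPM over Treg libraries and was at 0 in all 12 CD8 libraries. Of the 5 neutrophil markers, to which Mmp9 belongs, S100a8, S100a9 and Retnlg were at 0 in all Treg groups, while Csf3r was read after anti-JAML and after anti-PD-1. Their part in the Mmp9 values was not tested. Ranked among all 14590 genes, whatever their names, the members stood at 46 (Ikzf4), 55 (Izumo1r), 110 (Ikzf2), 308 (Gpr83), 438 (Capg) and 3630 (Nrp1). Over the 12 Treg libraries alone the nearest with known names included Fam234a (RMS 0.234), Rora (0.284) and Laptm5 (0.306). Among all genes, the members ranked there from 416 (Nrp1) to 14446 (Gpr83). A near rank need not mean a shared course: Capg ranked 1297 there, at r = -0.44 with Foxp3.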

How the data were processed

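RNA-seq of 24 libraries was used. The authors deposited whole-number counts of reads per gene without normalization, and a TPM table of the same libraries, scaled by transcript length and to a common sum. STAR 2.7.3a, fastp 0.20.1, deepTools 3.3.1 and SAMtools and the build mm10 are named, per the submitters' processing notes, while the counting tool with its annotation and strand setting is not given in the sources used here. Total counts set the precision: 11170918 to 22556460 reads per library.

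Counts were tested in R 4.3.3 with edgeR 4.0.16 (robust quasi-likelihood F test, TMM, filterByExpr with a minimum count of 10 and minimum total of 15), with Benjamini-Hochberg adjustment over all genes tested, two-sided, threshold 0.05. The 8 libraries of an antibody entered each comparison of populations, the 12 of a population each antibody comparison, and all 24 the interactions. Each SE was derived as the absolute log2 fold change over the square root of the edgeR F statistic. DESeq2 1.42.0 was an alternative. CPM was TMM-scaled over 24 libraries, and TPM was used to compare levels between genes. Where a whole group was at 0, 3 counts over the group served as its floor. Correlations and figures used SciPy 1.17.1 and matplotlib 3.10.9. The test code was checked on simulated counts. Positions came from GENCODE M21, where 54209 of the IDs (98.64%) have the same version; that of Ikzf4 differs.

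The members, the gene lists and the tests were chosen with earlier results of these data known. A member's fold change was printed singly in the comparisons of populations, where its p before adjustment was under 0.05, or for Foxp3 in every comparison tested; a few others are given for contrast. From each pathway list up to 3 genes per direction with the smallest p among those called could be named. Replicate numbers were compared between groups: 60 correlations of deviations lay between -0.18 and 0.15. In libraries of so few cells, low values cannot show whether libraries of the same number share a mouse. The main tests used no pairing. Alternatives were another tool, normalization and filter, a replicate block, a covariate, 1 fit of 24 libraries, and libraries left out. Some genes that the rules would name are not reported here.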

Additional observations from a re-analysis of the deposited data

Results flagged for a closer look

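In 3 of 36 sets of 4 libraries of a member, the highest library lay far from the others by Dixon's test of the gap to the nearest library over the range. Chance flags about 1 in 20 such sets. Foxp3 had 99.8 CPM in Treg isotype library 4, where the other 3 had 56.5 to 63.3 CPM (gap over range 0.843). Nrp1 had 127 CPM in CD8 anti-JAML library 4, where the others had 35.8 to 49.5 CPM (0.849). Capg had 582 CPM in CD8 anti-PD-1 library 4, where the others had 346 to 381 CPM (0.853).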

How the results depend on the processing

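Calls of members between populations held under the alternatives run, with the exceptions given beside the results and those here. The replicate block left 3 members called after anti-JAML, where Ikzf4 and Capg had adjusted p-values of 0.0938 and 0.0663. DESeq2 called 1 member for anti-PD-1 over isotype and 1 for anti-JAML over anti-PD-1 in Treg cells. The stricter filter did not test Foxp3 between populations, since CD8 libraries are at 0. Foxp3 for anti-PD-1 over isotype in Treg cells turned to -0.55 with genes detected as a covariate and to -0.0145 without anti-PD-1 library 2 (range -0.0145 to 0.417 with each library left out). The cause was not tested.

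Numbers of genes called moved more. Treg against CD8 cells, they were 248 after anti-JAML (747 by DESeq2, 95 with the replicate block, 666 with all 24 libraries in 1 fit), 955 after anti-PD-1 (1935 by DESeq2) and 1791 after isotype (1075 with the block, 1115 with the covariate). With each library left out they were 82 to 328, with 3 to 5 members called, 396 to 1900, and 1117 to 2125. In Treg cells, anti-JAML over isotype gave 87 by DESeq2, 6 with 24 libraries and 0 to 5 with a library left out (5 without isotype library 4). Anti-PD-1 over isotype gave 3, and 623 by DESeq2, 176 with 24 libraries, 12 without the macrophage-high libraries, and 0 with the block, with the covariate and without isotype library 3. With a library left out it gave 0 to 122 (122 without isotype library 4, 23 without anti-PD-1 library 1). Anti-JAML over anti-PD-1 gave 70 by DESeq2, 3 with 24 libraries and 0 to 1 with a library left out. In CD8 cells DESeq2 gave 210 for anti-JAML over isotype, 22 for anti-PD-1 over isotype and 262 for anti-JAML over anti-PD-1. The last was 4 with RLE normalization, 9 with no filter, 2 with a stricter one, 58 with 24 libraries and 3 without the macrophage-high libraries. It was 0 with the block, with the covariate and without CD8 anti-JAML libraries 2 and 4, and 0 to 11 with a library left out. Interactions gave 283 and 201 genes by DESeq2, and 0 to 19 and 0 to 12 with a library left out. The causes were not tested.

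Correlations were recomputed under alternatives chosen after seeing the data. Over 12 Treg libraries, r of Ikzf2 and Izumo1r was 0.72 on TPM (adjusted p = 0.0294, permutation test) and 0.80 without the macrophage-high libraries (0.0737, permutation test), and 9 of 12 settings that left out a library lost the call (r 0.73 to 0.86). Foxp3 and Ikzf4 reached 0.79 on TPM (adjusted p = 0.0142, permutation test). Few cells per library and 4 libraries per group limit the precision of low members, Gpr83 above all.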
